A study of Mus musculus with 6 samples.

Results

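The nuclear genes for the subunits of oxidative phosphorylation were followed in mouse nephron progenitors with and without the miR-17~92 microRNA cluster. Members were the protein-coding nuclear genes whose symbols begin with Ndufa, Ndufb, Ndufc, Ndufs, Ndufv, Uqcr, Cox4i, Cox5, Cox6, Cox7, Cox8 or Atp5, together with Sdha, Sdhb, Sdhc, Sdhd and Cyc1. Pseudogenes and the Ndufaf assembly factors were left out. The rule found 88 of the 27179 entries in the deposited table, of which 40 belong to complex I, 4 to complex II, 9 to complex III, 18 to complex IV and 17 to complex V. The rule reads gene symbols and gene types.

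Oxidative phosphorylation makes ATP at the inner mitochondrial membrane. Complexes I and II feed electrons from NADH and succinate into ubiquinone, complex III hands them on through cytochrome c, and complex IV passes them to oxygen. The protons pumped by complexes I, III and IV drive complex V, the ATP synthase. Complexes I, III, IV and V are built from subunits of both genomes, and complex II from nuclear subunits alone. Nephron progenitors are the self-renewing cells of the fetal kidney that form the nephrons, and glycolysis is known as a main source of energy while they renew.

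All 6 libraries came from Six2-positive progenitors sorted from embryonic kidneys at E16.5, and each was a pool of 4 embryos. The 3 control libraries were labelled Six2TGC, a transgene that drives a green fluorescent protein and Cre recombinase in cells that express Six2. The 3 mutant libraries were labelled Six2TGC;miR-17~92fl/fl, so that both genotypes carried the transgene and the mutants in addition had floxed copies of the cluster, which Cre can remove in Six2-expressing cells and their descendants. No floxed copies are named for the controls and no strain is named for any pool, so the deletion and any other genetic difference between the pools cannot be told apart. Replicate p-values measure the spread between these pools.

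Depth lay between 27602025 and 36134381 reads a library. The label check held in all 6 libraries: Mir17 stood at 12.5, 8.57 and 6.77 RPKM (reads per kilobase of gene, scaled to library depth) in the controls and at 0.787, 0 and 0 in the mutants. Mir17hg, the host transcript of the cluster, lay between 33.6 and 52.9 RPKM in control pools and between 183 and 259 in mutant pools. The 15 nephron progenitor markers summed to 835, 816 and 878 RPKM in the controls and to 728, 649 and 774 in the mutants, so every mutant pool was below every control pool. Among them Six2 stood at 69.9 to 104 against 57 to 77 RPKM (difference -0.37 on log2(RPKM + 0.5), limma adjusted p 0.249) and Cited1 at 19.9 to 27.9 against 15.5 to 21.2 RPKM (difference -0.39, limma adjusted p 0.235), both with overlap. Mitochondrial ribosomal RNA took 26.96% to 30.35% of the control depth and 32.23% to 38.24% of the mutant depth, so it moved with genotype. Summed markers of nephron tubules and podocytes were 4.8 to 5.93 RPKM in the controls and 7.32 to 20.6 in the mutants, with 5 of 11 markers at a mean of 0.5 RPKM or more. Those of macrophages and leukocytes were 2.16 to 5.1 and 10.6 to 14.3 RPKM, with 5 of 12 at that level. The part of these in the differences below was not tested, and in such bulk RNA fewer cells of a type cannot be told apart from less RNA per cell.

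The subunit genes were expressed well above the usual gene. Of the 88 members, 81 averaged 0.5 RPKM or more across the 6 libraries and were tested, and their median level was 22.8 RPKM beside 6.29 for all 13463 tested genes. Of the 88, 60 had a mean above 10 RPKM. The 5 members at 100 RPKM or more were Atp5b, Atp5g3, Atp5a1, Atp5c1 and Cox4i1, so 4 of them belong to the ATP synthase. Atp5b, the catalytic beta subunit, was the highest, at 608, 695 and 472 RPKM in the control pools and 497, 480 and 570 in the mutant pools. Added over all 88 members, the control libraries held 3907, 4555 and 3033 RPKM and the mutants 3277, 3064 and 3339. The lowest and the highest sum were therefore both in control pools, and the mutants lay between them.

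Control replicate 2 had the highest sum in all 5 complexes. The lowest was control replicate 3 in complexes I and IV and mutant replicate 2, by a small margin, in complexes II, III and V. Complex I summed to 1032, 1258 and 786 RPKM in control replicates 1, 2 and 3 and to 861, 796 and 861 in the mutants. Complex IV summed to 509, 640 and 405 RPKM in the control pools and 461, 437 and 447 in the mutant pools. Complex V summed to 1812, 2036 and 1403 RPKM in the control pools and 1493, 1393 and 1552 in the mutant pools. In every complex the standard deviation of these sums was larger among the control pools than among the mutant pools (236 against 37.1 RPKM in complex I, 117 against 11.9 in complex IV). Gene by gene, control replicate 2 was the highest of the 6 libraries for 59 of the 81 tested members (72.8%) and for 33.5% of all tested genes. Control replicate 3 was the lowest control for 68 members (84%) and for 47.7% of all tested genes. All 3 mutant values lay within the range of the controls for 33 members (40.7%), against 14.9% of all tested genes.

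**Figure D1:**
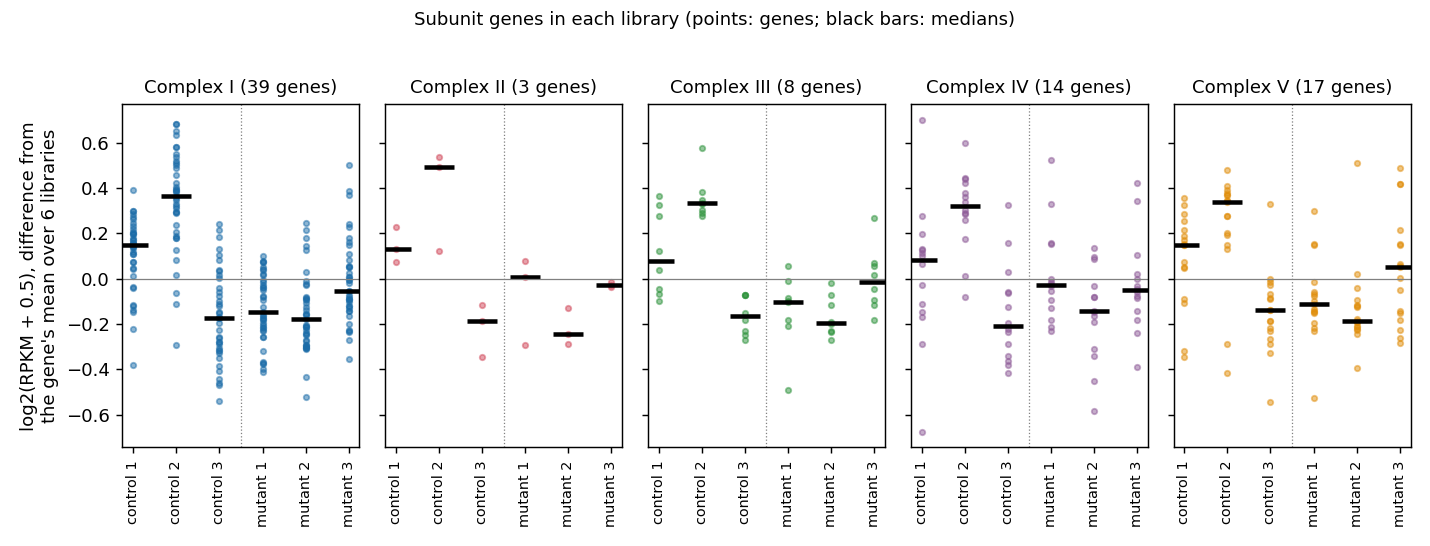
The 81 tested subunit genes in each of the 6 libraries, by complex. The vertical axis is the difference of log2(RPKM + 0.5) from the gene's own mean over the libraries, points are genes and black bars are medians. In each complex the highest median is in control replicate 2, and the lowest control median is in control replicate 3, at -0.14 to -0.21 beside -0.24 to 0.05 in the mutants.

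On the scale of log2(RPKM + 0.5), the median member stood 0.13 and 0.34 above its own mean in control replicates 1 and 2 and at -0.18 in control replicate 3. In the mutants it stood at -0.10, -0.18 and -0.03. Part of this is common to all genes in a library, so the median of all tested genes was subtracted. The member median was then 0.06, 0.24 and -0.18 in the control pools and -0.07, -0.02 and -0.06 in the mutant pools. In each of the 5 complexes the median of control replicate 3 was then below that of every mutant. Control replicates 2 and 3 thus differed more from each other than either differed from the mutants. This order was not particular to the members. In control replicates 2 and 3 glycolytic genes stood at 0.26 and -0.22, and citric acid cycle enzymes outside complex II at 0.18 and -0.17. Mitochondrial ribosomal proteins stood at 0.17 and -0.10. Regulators of mitochondrial biogenesis did not show it (-0.03 in both), and mitochondrially encoded mRNAs ran the other way (-0.56 and -0.02). Control replicate 3 also had the lowest summed interstitial markers (66.5 RPKM, against 120 to 214 in the other 5 libraries) and the highest summed nephron progenitor markers (878 RPKM, against 649 to 835). The part of cell makeup in the order of the control pools was not tested.

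The promoters of the members were read next. RefSeq promoters (GRCm38.p6, from 250 bases before to 50 after the start) were found for 70 members. A gene was counted when any of its promoters held a match. The NRF1 core GCGCATGC, searched on both strands, was in 10 of the 70 (14.3%). It was in 3.05% of all 27025 genes with a promoter and in 6.19% of tested genes with a promoter. NRF1 is a transcription factor known for its role at nuclear genes of respiration. The YY1 core AAGATGGC was in 10 (14.3%, against 3.19% of all and 5.33% of tested genes). The half-site of the estrogen-related receptors, AAGGTCA, was in 8 (11.4%, against 5.38% and 3.64%), and the ETS core CCGGAAGT in 5 (7.14%, against 4.31% and 9.29%). A match describes letters in the window and was not tested as a binding site. The 10 members with the NRF1 core were Ndufa6, Ndufa8, Ndufa11, Sdhb, Uqcr11, Uqcrc1, Cox6a1, Atp5g2, Atp5k and Atp5l. The 3 shown carry it in genes of very different level: Cox6a1 at 51.4 to 80.6 RPKM, Atp5g2 at 2.48 to 4.37 RPKM, and Uqcr11, which is listed at 0. Capitals mark the NRF1 core on either strand and, in Uqcr11, also an ETS core; all 3 genes lie on the minus strand and are printed 5′ to 3′ along it.
Cox6a1, chr5:115348909-115349208: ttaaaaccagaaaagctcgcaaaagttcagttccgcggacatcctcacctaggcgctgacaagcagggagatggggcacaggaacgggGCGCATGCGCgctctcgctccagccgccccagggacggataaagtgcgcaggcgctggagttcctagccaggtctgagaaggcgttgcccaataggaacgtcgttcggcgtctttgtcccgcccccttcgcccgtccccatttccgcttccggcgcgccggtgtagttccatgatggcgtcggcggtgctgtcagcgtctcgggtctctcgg
Atp5g2, chr15:102670998-102671297: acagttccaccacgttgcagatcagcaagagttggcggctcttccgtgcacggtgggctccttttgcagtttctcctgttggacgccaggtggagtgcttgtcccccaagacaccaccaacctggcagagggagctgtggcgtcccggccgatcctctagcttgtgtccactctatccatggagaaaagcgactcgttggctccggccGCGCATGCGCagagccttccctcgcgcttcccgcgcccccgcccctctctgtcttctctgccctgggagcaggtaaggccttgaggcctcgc
Uqcr11, chr10:80406772-80407071: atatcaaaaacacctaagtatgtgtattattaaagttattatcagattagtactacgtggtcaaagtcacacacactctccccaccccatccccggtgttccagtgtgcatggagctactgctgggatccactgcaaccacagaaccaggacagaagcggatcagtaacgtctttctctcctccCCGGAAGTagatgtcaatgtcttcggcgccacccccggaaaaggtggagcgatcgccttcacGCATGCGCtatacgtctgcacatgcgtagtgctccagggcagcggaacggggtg

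The comparison of mutants with controls asks which transcripts differ between the pools of these genotypes. It was made with limma over all 13463 tested genes, as a difference on log2(RPKM + 0.5). Across all of them 178 (1.32%) were called higher in mutants and 244 (1.81%) lower, at an adjusted p under 0.05. Among the 81 tested members, 1 was called higher and 0 were called lower by limma; at an unadjusted p under 0.05 these counts were 2 and 6, where all tested genes gave 5.94% and 13.7%. The voom method on whole reads called 0 members, where it called 293 of all 13463 tested genes higher and 392 lower. Mutant values lay entirely above the controls for 2 members (2.47%, against 7.06% of all tested genes) and entirely below for 6 (7.41%, against 18.0%). In both directions the share of members was below that of all tested genes.

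Most members nevertheless lay on the lower side. The differences of the 81 ranged from -0.54 to 0.87 with a median of -0.211, and 70 were below 0 under the deposited scaling. That number was 60 with median-of-ratios scaling, 57 without mitochondrial ribosomal RNA, 53 with quantile normalization and 58 without control replicate 2. Since the median over all tested genes was itself -0.125, 56 of the 81 lay below that median, and the members' median was 0.086 lower than it. Scaling moved both: dividing by depth without mitochondrial ribosomal RNA gave a member median of -0.093 beside -0.013 for all genes, and quantile normalization gave -0.047 beside -0.020. The split of all calls turned with it, from 178 higher and 244 lower to 273 higher and 153 lower without mitochondrial ribosomal RNA, to 262 and 171 with median-of-ratios scaling and to 264 and 163 with quantile normalization. The medians of the complexes lay close together, at -0.23 in complex I, -0.18 in complex II, -0.19 in complex III, -0.17 in complex IV and -0.20 in complex V. They too moved with the scaling, to between -0.130 and -0.071 with median-of-ratios scaling, between -0.114 and -0.056 without mitochondrial ribosomal RNA and between -0.079 and -0.009 with quantile normalization. No member lies on chromosome 14, which carries the targeted cluster.

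The count of lower calls changed with control replicate 3. Without that pool the members' median was -0.332, and 15 of the 81 members (18.5%) were called lower by limma, where 6.04% of all tested genes were. Among the 15 were Ndufa2, Ndufa9, Ndufb5, Ndufb9, Ndufc2, Ndufs7 and Ndufv1 of complex I, Sdhc of complex II, Cyc1 and Uqcrfs1 of complex III, Cox4i1 and Cox6b1 of complex IV, and Atp5c1 and Atp5g3 of complex V. Without control replicate 2 the members' median was -0.078, slightly above the -0.104 of all genes, and 0 members were called lower. Whether the members stood below all genes in the mutants thus changed with the control pool left out.

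**Figure D2:**
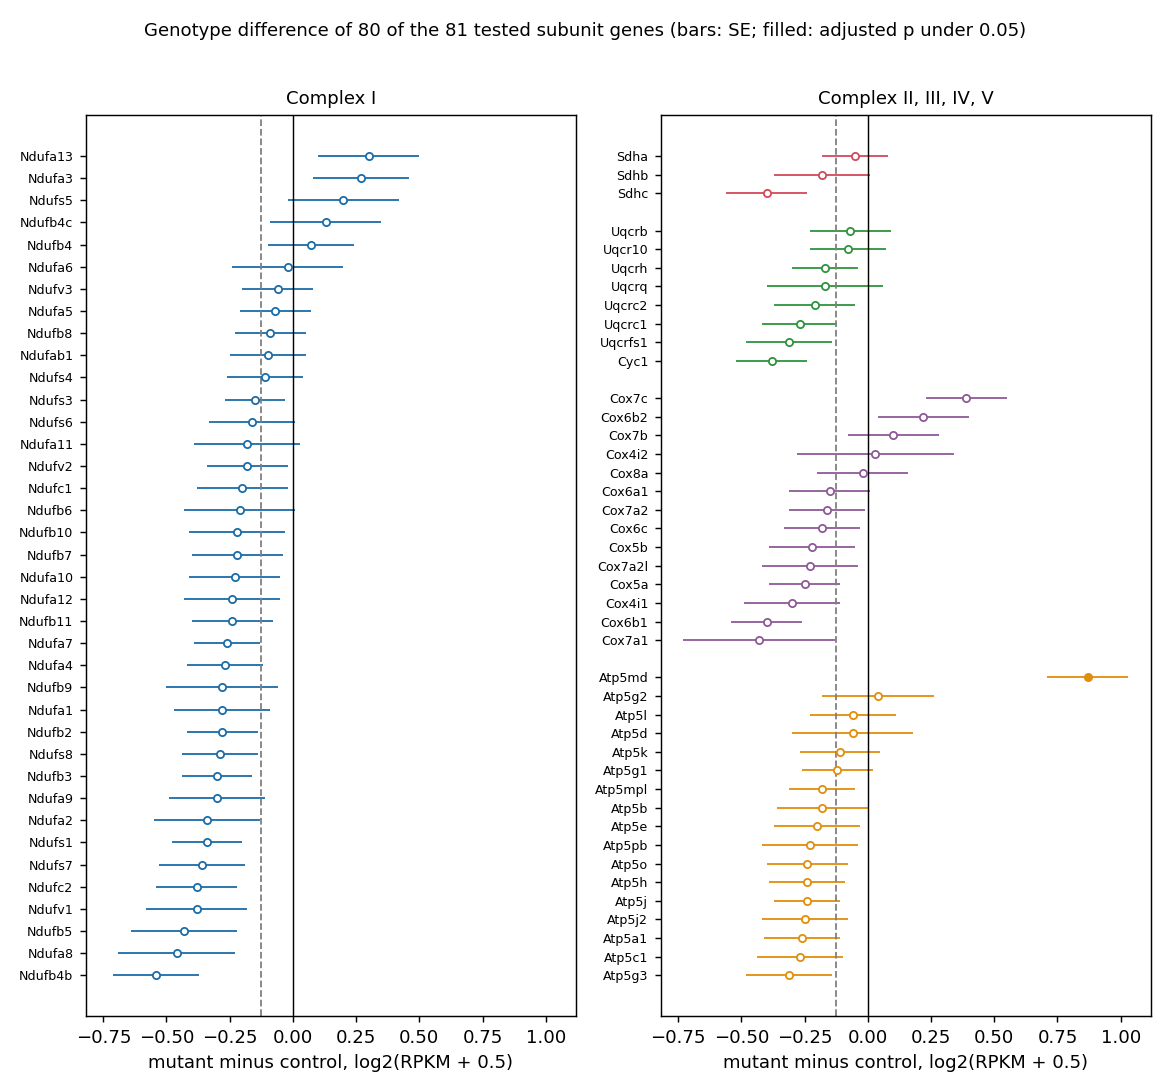
Difference between mutants and controls for 80 of the 81 tested subunit genes, on log2(RPKM + 0.5), with its standard error; the dashed line is the median of all tested genes (-0.125). The filled point, Atp5md, is the 1 member with an adjusted p under 0.05, and 69 of the points lie below 0.

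Complex I takes electrons from NADH, and 39 of its 40 members were tested with 0 calls in either direction (3 lower and 0 higher at an unadjusted p under 0.05; 0 by voom). Of all tested genes, 13.7% were lower and 5.94% higher at that unadjusted p. The lowest p in complex I belonged to Ndufb4b, a short gene named after the accessory subunit Ndufb4, protein-coding in RefSeq and not matched to a GENCODE transcript. Ndufb4b stood at 8.35, 11.1 and 8.75 RPKM in the control pools and 6.44, 5.17 and 7.34 in the mutant pools, which did not overlap. Its difference was -0.54 (SE 0.17, n = 3 each, limma adjusted p 0.115), and how far it shares reads with Ndufb4 was not measured. Ndufs1, the largest core subunit and a carrier of iron-sulfur clusters, stood at 38.5, 41.8 and 34.8 RPKM in the control pools and 34.4, 27.6 and 28.8 in the mutant pools. The groups were separated only narrowly, and the difference was -0.34 (SE 0.14, limma adjusted p 0.203). Ndufc2, an accessory subunit of the membrane arm, likewise did not overlap, at 41.8, 52.8 and 35.5 against 28.9, 35.3 and 34.4 RPKM (difference -0.38, SE 0.16, limma adjusted p 0.22). Ndufs3, a core subunit named here after its values were seen, was also without overlap, at 17.5, 16.7 and 15.8 against 14.4, 14.6 and 15.7 RPKM, and 49.31% of its 31-base words occur elsewhere.

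The groups overlapped in Ndufs7 and Ndufa4. Ndufs7, which holds the last iron-sulfur cluster before ubiquinone, stood at 22.4, 25.7 and 16.4 RPKM against 16.3, 14.9 and 17.9, with control replicate 3 at the level of the mutants (difference -0.36, SE 0.17, limma adjusted p 0.256). Ndufa4, which is named for complex I and is now known to sit in complex IV, stood at 85.1, 100 and 68.8 RPKM against 73.5, 63.1 and 71.6 (difference -0.27, SE 0.15, limma adjusted p 0.341). Of the 39 tested members of complex I, 34 had a difference below 0 and 28 lay below the median of all genes; these counts are for the deposited scaling.

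Complex II oxidizes succinate and also serves the citric acid cycle. Sdha, the flavoprotein subunit, was nearly level, at 73.2, 72.8 and 58.8 RPKM in the control pools and 70.6, 61.1 and 66.2 in the mutant pools. Its difference of -0.05 (SE 0.13, limma adjusted p 0.867) turned to between 0.058 and 0.147 under the 3 other scalings. Sdhb, the iron-sulfur subunit, stood at 26.3, 36.4 and 19.5 against 25.1, 21 and 24.3 RPKM, with the mutants inside the control range (difference -0.18, SE 0.19, limma adjusted p 0.613). Sdhc, a membrane anchor, stood at 56.4, 67.8 and 44.3 against 39.1, 39.2 and 47.1 RPKM; only mutant replicate 3 reached the lowest control (difference -0.40, SE 0.16, limma adjusted p 0.207). The other anchor, Sdhd, was listed at only 0.056 to 0.277 RPKM in the 6 libraries and fell under the filter. It shares 0% of its 31-base words with another annotated transcript.

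Complex III, the cytochrome bc1 complex, had 8 tested members, all with a difference below 0 under the deposited scaling, and 0 calls (1 lower at an unadjusted p under 0.05; 0 by voom). Of all tested genes, 13.7% were lower at that unadjusted p. The median of the 8 members, -0.191, was -0.009 with quantile normalization, where Uqcrh and Uqcrc2 were above 0. Cyc1, cytochrome c1 (chr15:76343513-76346260), stood at 68.8, 64.8 and 50.7 RPKM in the control pools and 46, 44.1 and 50 in the mutant pools, so that the groups just failed to overlap. Its difference was -0.38 (SE 0.14, limma adjusted p 0.179). Uqcrfs1, the Rieske iron-sulfur protein, stood at 60.9, 63.4 and 40.7 against 45.7, 42.1 and 42.6 RPKM, with control replicate 3 below every mutant (difference -0.31, SE 0.17, limma adjusted p 0.319). The 2 core proteins differed in level: Uqcrc2 stood at 96.4, 98.1 and 65.8 RPKM against 78.9, 69.4 and 73.2. Uqcrc1 stood at 13.7, 16.1 and 11.9 against 11, 10.6 and 12.7 RPKM. Their groups overlapped, with differences of -0.21 (SE 0.16, limma adjusted p 0.474) and -0.27 (SE 0.15, limma adjusted p 0.338). Uqcrh, the hinge protein, was the other high member, at 80.1 to 103 RPKM in the controls and 77.6 to 81.5 in the mutants (difference -0.17, SE 0.13, limma adjusted p 0.475). Uqcr11, a small subunit, was listed at 0 in all 6 libraries, while the other small subunit Uqcr10 stood at 45.5 to 63.9 RPKM.

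Complex IV, cytochrome c oxidase, held both the member closest to a lower call after Ndufb4b and one on the higher side. Cox6b1, a subunit that faces the space between the membranes (chr7:30616971-30626114), stood at 48.6, 60.6 and 45.4 RPKM in the control pools and 38.3, 40.3 and 37.6 in the mutant pools. Every control was above every mutant, and the difference was -0.40 (SE 0.14, limma adjusted p 0.152). Cox7c, a small membrane subunit, went the other way, at 18.6, 19.8 and 16.4 against 30.3, 22.4 and 20.5 RPKM, also without overlap (difference 0.39, SE 0.16, limma adjusted p 0.212). Of its 31-base words, 50.62% occur in other annotated genes, so its reads may be split with pseudogenes. Cox5a, at 55.9, 68.7 and 51.1 against 52.1, 46.6 and 48.3 RPKM, overlapped in 1 mutant (difference -0.25, SE 0.14, limma adjusted p 0.344).

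Several subunits of complex IV exist as paired isoforms, and nearly all of the summed RPKM fell on the form known from most tissues. Cox4i1 stood at 123, 170 and 91.9 RPKM in the control pools and 98.9, 106 and 98.7 in the mutant pools (difference -0.30, SE 0.19, limma adjusted p 0.4). It made up 99.2% to 99.9% of its family's summed RPKM, and the rest was Cox4i2, known from lung and low oxygen. Cox6a1 stood at 51.4 to 80.6 RPKM, and the muscle form Cox6a2 was listed at 0 in all 6 libraries. Since Uqcr11, a subunit of most tissues, is listed at 0 as well, such a 0 may be a failed estimate, and no share is given for this pair. Cox8a made up at least 99.2%, with the muscle form Cox8b listed above 0 in control replicate 1 alone (0.28 RPKM) and Cox8c in 2 mutants (0.0694 and 0.0761 RPKM). Cox7b made up at least 99.5%, and Cox7b2 stood at 0.125 RPKM or less. The summed markers of skeletal and cardiac muscle were between 4.23 and 6.43 RPKM in the 6 libraries, with 3 of 8 at a mean of 0.5 RPKM or more.

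The families of Cox7a2l and Cox6b1 were more mixed, and that of Ndufa4 was not. Cox7a2l, a relative of Cox7a2 known for its part in supercomplexes, made up 91.6% to 93.3% of its family's RPKM (58.3 to 101 RPKM; difference -0.23, SE 0.19, limma adjusted p 0.514). Cox7a2 made up 6.04% to 7.78%, and the heart and muscle form Cox7a1 0.306% to 1.22%. Cox6b2, the form known from testis, was the minor isoform with the largest share: 8.47%, 8.51% and 10.6% of its family in control pools and 10.9%, 13.3% and 17% in mutant pools. In RPKM Cox6b2 itself overlapped between the genotypes, at 4.49, 5.64 and 5.36 against 4.7, 6.2 and 7.68. Ndufa4 made up at least 99.1% of its pair, and Ndufa4l2, known as a gene induced by low oxygen, stood at 0.0687 to 0.561 RPKM with overlapping groups.

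**Figure D3:**
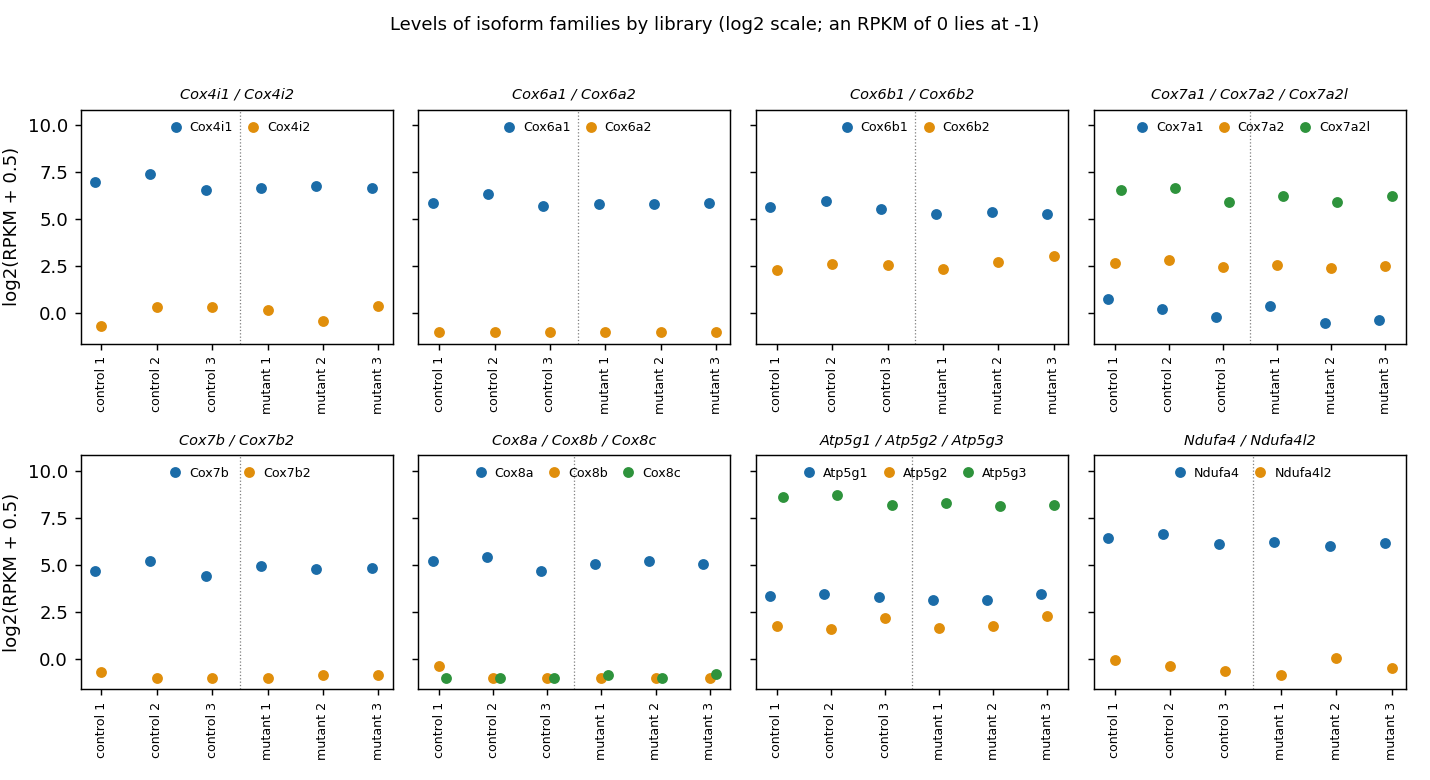
Levels of the 8 isoform families by library on the log2(RPKM + 0.5) scale, where an RPKM of 0 lies at -1; each colour is a gene of the family. In every family 1 isoform lies far above the rest in all 6 libraries, and Cox6b2 is the closest to its partner.

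Complex V, the ATP synthase, gave the 1 call among the members. Atp5md (Entrez Gene 66477, chr19:47083471-47090647 in GRCm38.p6), a small membrane subunit also known as DAPIT, stood at 1.99, 1.87 and 1.67 RPKM in the control pools and 3.39, 4.01 and 3.93 in the mutant pools. Each mutant was above each control, with 20, 23 and 16 reads against 35, 38 and 37. The difference was 0.87 (SE 0.16, n = 3 each, limma adjusted p 0.0143). The call was lost with voom on those reads (adjusted p 0.155), with no filter on low values (limma adjusted p 0.076) and without mutant replicate 2 (limma adjusted p 0.0887), and over its 19 alternatives the adjusted p ranged from 0.00855 to 0.155. Of its 31-base words, 45.34% occur in another annotated gene, and its level was low for its complex: Atp5mpl, another small subunit, stood at 59.6 to 82.7 RPKM.

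The catalytic and ring subunits of the synthase were the most abundant members. Atp5b had a difference of -0.18 (SE 0.18, limma adjusted p 0.563). Atp5a1, the alpha subunit, stood at 249, 276 and 198 RPKM against 204, 184 and 211 (difference -0.26, SE 0.15, limma adjusted p 0.364). Atp5g3, 1 of 3 genes for the ring subunit c, stood at 384, 423 and 283 against 307, 278 and 284 RPKM, with control replicate 3 inside the mutant range (difference -0.31, SE 0.17, limma adjusted p 0.327). It made up 95% to 97% of the summed RPKM of the 3 genes, Atp5g1 2.4% to 3.5% and Atp5g2 0.569% to 1.46%. The shares of Atp5g1 and Atp5g2 are uncertain, since 57.64% and 48.1% of their 31-base words occur elsewhere, against 0% for Atp5g3. Atp5j, which belongs to the peripheral stalk, stood at 62.8, 68.5 and 53.8 against 55.9, 51.9 and 48.2 RPKM (difference -0.24, SE 0.13, limma adjusted p 0.339).

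Subunit genes are short and many have processed pseudogenes, which bears on what their RPKM values count. The median counted length was 651 bases for tested members and 2683 for all tested genes. Of 86 members with a transcript to compare, 19 had 20% or more of their 31-base words in some other annotated gene and 36 had none. Atp5l (69.65%), Ndufab1 (68.01%) and Atp5h (60.84%) shared the most. Ndufs5 was listed at 0.649 to 1.35 RPKM, while Ndufs5-ps on chromosome 16, a transcribed pseudogene in RefSeq and a processed pseudogene in GENCODE, stood at 28.4 to 38.7 RPKM. That level rests on 79 to 140 reads a library, against 10 to 19 for Ndufs5, so the gap was smaller in reads than in RPKM. Of the 31-base words of Ndufs5, 47.27% occur in that pseudogene. Ndufb4c was counted as protein-coding by RefSeq and is a processed pseudogene in the GENCODE annotation. Of the same 86, 25 had exonic bases under another gene. Among those described with their values were Cox5a (41.7%), Uqcrc2 (26.6%), Atp5j (19.1%), Cox4i1 (18%), Ndufs1 (9.32%), Ndufs3 (8.41%) and Atp5a1 (5.22%). With no strand setting known, the reads of these 25 may be mixed with those of the other gene. Without the 19 members the median difference was -0.234, close to that of all members.

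MicroRNAs are known to act mainly through seed matches in 3′ UTRs, so such matches were counted in the annotated 3′ UTRs of the members. The mature microRNAs of the cluster are shown because their seeds, bases 2 to 8 in capitals, define the sites; they lie on chromosome 14, plus strand, and their sequences are from RefSeq (GRCm38.p6).
miR-17-5p: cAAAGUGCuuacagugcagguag
miR-20a-5p: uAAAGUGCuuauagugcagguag
miR-18a-5p: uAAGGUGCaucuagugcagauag
miR-19a-3p: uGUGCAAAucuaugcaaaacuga
miR-19b-3p: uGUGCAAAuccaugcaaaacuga
miR-92a-3p: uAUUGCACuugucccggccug

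miR-17-5p and miR-20a-5p share a seed, as do miR-19a-3p and miR-19b-3p, which leaves 4 seeds. Of 79 tested members with an annotated 3′ UTR, 9 (11.4%) held a match of 7 bases to a seed, against 34.6% of all 11709 tested genes with a 3′ UTR. A match of 7 bases followed by an A was in 0 members and in 14.3% of all. The UTRs of the members were short, with a median of 201 bases against 1232, and per kilobase they held 0.26 sites against 0.309. The 9 were Ndufa5, Ndufa10, Ndufab1, Ndufb2, Ndufb4, Uqcrfs1, Cox7b, Atp5g1 and Atp5md. Atp5md was the 1 member with 2 sites, shown with the match in capitals because it was also the 1 called higher.
Atp5md, match to the seed of miR-18a-5p: agttgagaGCACCTTctgctctt
Atp5md, match to the seed of miR-19a-3p and miR-19b-3p: agaatggtTTTGCACttgggagt

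Both lie in an annotated 3′ UTR of 2494 bases, whereas the gene model behind the deposited value of Atp5md was 341 bases long. The UTRs of Atp5g1, Ndufb2, Ndufab1 and Ndufb4 (4252, 4012, 2944 and 487 bases) were also longer than their counted gene models (868, 455, 800 and 454 bases). Whether progenitors use these long UTRs was not measured. Of the other 8 members with a site, 0 were called in either direction by limma.

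Genes around the complexes were set beside them by lists. At an unadjusted limma p under 0.05, 5.94% of all tested genes were higher and 13.7% lower. By voom 293 of all 13463 were called higher and 392 lower. Of 46 tested assembly factors, 0 were called by limma (1 higher and 6 lower at an unadjusted p under 0.05; 0 by voom), with a median difference of -0.16. The closest to a call was Cox18, which inserts a mitochondrially made subunit of complex IV, at 9.91, 12.1 and 9 RPKM against 6.26, 7.44 and 6.46 (difference -0.58, SE 0.15, limma adjusted p 0.0678). Of 77 mitochondrial ribosomal proteins 0 were called (0 higher and 7 lower unadjusted; 0 by voom), with a median of -0.20. Of 14 citric acid cycle enzymes outside complex II 0 were called (0 higher and 2 lower unadjusted; 0 by voom), with a median of -0.22, and Ogdh had the lowest p (difference -0.34, SE 0.13, limma adjusted p 0.183). Of 16 glycolytic genes 0 were called (1 higher and 2 lower unadjusted; 0 by voom), with a median of -0.18. Among the glycolytic genes Gapdh had the lowest p, at 4.93, 3.91 and 4.62 against 2.52, 1.81 and 3.56 RPKM (difference -0.70, SE 0.21, limma adjusted p 0.101). Without control replicate 3 limma called 1 assembly factor higher and 4 lower, 3 ribosomal proteins lower and 1 citric acid cycle enzyme lower. In that setting 813 of all 13471 tested genes (6.04%) were called lower and 270 higher. Without mutant replicate 3 limma called 1 glycolytic gene lower, where 164 of all 13383 tested genes were.

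Regulators and carriers gave little more. Of all tested genes, 5.94% were higher and 13.7% lower at an unadjusted limma p under 0.05. By voom 293 of all 13463 were called higher and 392 lower. Of 21 tested regulators of mitochondrial biogenesis 0 were called by limma (1 higher and 3 lower unadjusted; 1 by voom), with a median of -0.07. Esrrg, an estrogen-related receptor, stood at 1.22, 1.48 and 1.13 RPKM in the control pools and 1.71, 2.76 and 2.55 in the mutant pools, without overlap (difference 0.66, SE 0.20, limma adjusted p 0.11). Of 21 genes for cytochrome c, ubiquinone synthesis and nucleotide carriers 0 were called by limma (0 higher and 5 lower unadjusted; 1 by voom), with a median of -0.13. Slc25a31, an ADP and ATP carrier known from the germ line, had the lowest p, at 1.99, 3.11 and 1.48 against 1, 0.733 and 0.996 RPKM (difference -0.90, SE 0.23, limma adjusted p 0.0642). Without control replicate 3 limma called 4 genes of this list and 1 of the regulators lower, where 6.04% of all tested genes were.

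The partner subunits made in the mitochondrion did not follow the nuclear ones. The 13 mitochondrially encoded mRNAs summed to 16858, 16120 and 21170 RPKM in the control pools and 19232, 25698 and 19550 in the mutant pools. Relative to all tested genes their median was -0.27, -0.56 and -0.02 in the control pools and 0.08, 0.62 and 0.05 in the mutant pools, so that control replicate 2, the highest for nuclear subunits, was the lowest here. Of the 13, 1 was called higher by limma and 0 lower (6 higher and 0 lower unadjusted; 2 by voom), and the median difference was 0.50. Of all tested genes, 5.94% were higher and 13.7% lower at an unadjusted limma p under 0.05. By voom 293 of all 13463 were called higher and 392 lower. Without control replicate 3 limma called 7 of the 13 mitochondrially encoded mRNAs higher, where 270 of all 13471 tested genes were. The 1 called with all 6 libraries was ND3, a complex I subunit, at 8.58, 9.3 and 8.38 against 34.7, 28.4 and 20 RPKM (difference 1.57, SE 0.18, limma adjusted p 0.000662). The share of mitochondrial ribosomal RNA was likewise lowest in control replicate 2 (26.96%) and highest in mutant replicate 2 (38.24%), and its part in this result was not tested.

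**Figure D4:**
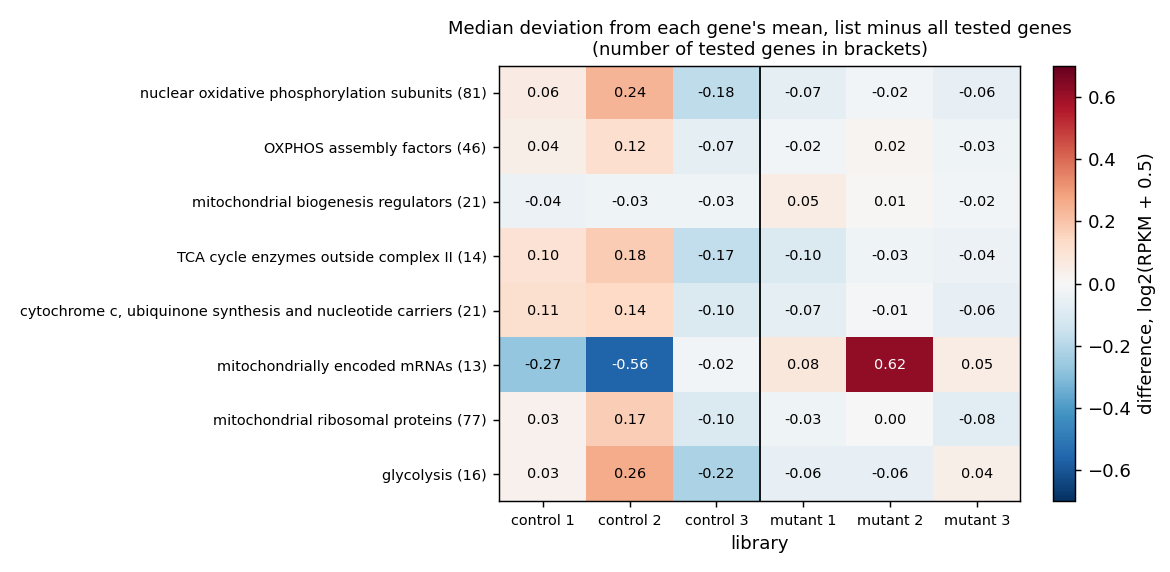
Deviation of each gene from its own mean over the 6 libraries on log2(RPKM + 0.5), as the median of each gene list (rows) in each library (columns) minus the median of all tested genes. The nuclear subunits run from 0.24 in control replicate 2 to -0.18 in control replicate 3, and the mitochondrially encoded mRNAs from -0.56 in control replicate 2 to 0.62 in mutant replicate 2. Glycolysis runs like the nuclear subunits, from 0.26 in control replicate 2 to -0.22 in control replicate 3.

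The remaining members under the filter or on the higher side add to this account. Under the filter were 7 members: Uqcr11 and Cox6a2, listed at 0 throughout, Sdhd, Ndufa4l2, Cox7b2, Cox8b and Cox8c. Under the deposited scaling 11 of the 81 tested members had a positive difference: Atp5md and Cox7c, described above, and Ndufa3, Ndufa13, Ndufb4, Ndufb4c, Ndufs5, Cox4i2, Cox6b2, Cox7b and Atp5g2, named after their values were seen. Of these 9, 0 passed the test by limma or voom.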

How the data were processed

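Whole-transcriptome RNA of 3 control and 3 mutant pools was sequenced with paired reads after amplification, per the labels' protocols; per the submitters' processing notes, mm10 was the build and FastQC and limma were used. The authors deposited RPKM values for 27179 Entrez Gene entries in 6 libraries; the sources used here name no counting tool, annotation or strand setting. Symbols were found for 25275 entries, and 5 pseudogenes with a member's prefix were left out.

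RPKM values of low genes are multiples of 1 read, so depth and whole reads (within 0.02 of a read) were worked out for all 27179 entries. Gene length was taken as the smallest that gave whole reads in all 6 libraries. Length and reads are therefore uncertain for entries with few reads, and entries at 0 throughout have no length. Reads summed to 99.71% to 99.75% of depth. At these depths 1 read on 1 kb is worth 0.0277 to 0.0362 RPKM. Whether a unit is a read or a pair is not known.

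Genotypes were compared with limma 3.58.1 (R 4.3.3) on log2(RPKM + 0.5), keeping genes that averaged 0.5 RPKM or more, with 1 genotype term and a trend of variance on mean; tests were two-sided and adjusted by Benjamini-Hochberg over all tested genes, at 0.05. Fold changes on this scale understate those of low genes. The script was tested on simulated data, with changes placed in genes drawn from all tested genes. It called 11.9% of 67 genes changed 1.5-fold, 62.7% of 67 changed 2-fold and 93.9% of 66 changed 4-fold. Of 120 calls 6.67% were false. Small differences were thus mostly missed in that simulation. Named members were those called, the 2 highest and up to 4 of lowest p in each complex, and all isoform families; 1 of these is not reported here. Members and lists were chosen with earlier results of these data known. Shared sequence was counted in GENCODE transcripts with Python 3.11.15, and promoters and microRNAs came from RefSeq. Alternatives covered the pseudocount, filter, scaling, variance model, weights, a replicate block, voom on whole reads and leaving out each library.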

Additional observations from a re-analysis of the deposited data

How the results depend on the processing

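Over 20 alternatives the median of the tested members kept its sign, from -0.332 to -0.047, while its distance from all genes ranged from -0.187 without control replicate 3 to 0.027 without control replicate 2. The medians of the 5 complexes ranged with it, from -0.395 without control replicate 3 to 0.004 without control replicate 2, both in complex II. All genes gave 422 calls, 143 with no filter on low values, 264 with a covariate for Y-linked expression, 685 with voom on whole reads, and between 148 and 1083 when 1 library was left out. Members called higher were 1, but 0 with no filter, with voom, without mutant replicate 2, and among members without substantial shared sequence (which leaves out Atp5md), so leaving out 1 library gave 0 to 1. Members called lower were 0, and 0 to 15 when 1 library was left out, with 15 only without control replicate 3. The difference of Sdha turned to 0.058 with median-of-ratios scaling, 0.147 with quantile normalization, 0.075 without mitochondrial ribosomal RNA, 0.008 without control replicate 1 or mutant replicate 2, and 0.004 without control replicate 2; leaving out 1 library it ranged from -0.149 to 0.008. That of Sdhb ranged from -0.395 to 0.046 in the same way, above 0 without control replicate 2, and with quantile normalization Uqcrh turned to 0.035 and Uqcrc2 to 0.004. Counts for the other gene lists moved as well. With array weights limma called 1 assembly factor and 1 gene of the cytochrome c, ubiquinone and carrier list lower. In that setting 250 of all 13463 tested genes were called lower. Without control replicate 3 it called 4 of each list lower, where 6.04% of all tested genes were. Mitochondrially encoded mRNAs called higher were 1. They were 2 with a minimum of 2 RPKM, quantile normalization, depth without mitochondrial ribosomal RNA, robust moderation, array weights or voom. Without control replicate 3 they were 7, where 270 of all 13471 tested genes were called higher. The cause of these changes was not tested.

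Same-numbered pools did not deviate together in all 3 pairs (correlations 0.05, 0.16 and 0.15), so the numbers were not taken as pairs. With the replicate block 393 genes were called in place of 422, and the members gave 1 higher, 0 lower and a median of -0.211. With 3 pools a group the standard errors of the tested members had a median of 0.17 on the log2 scale, and Atp5md rests on 16 to 38 reads a library.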
